A study of Mus musculus with 18 samples.

Results

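The genes described here are a list of 45 genes that signal and repair DNA damage, chosen by name and grouped into checkpoint and break sensing (9 genes), homologous recombination (9), end joining (7), the Fanconi anaemia pathway (8) and excision and mismatch repair (12). The deposited gene tables list 44 of them among 25601 different gene names. ERCC2, a helicase of nucleotide excision repair, shares 1 row with the microRNA MIR343, so its values cannot be told apart from that gene's, and it is given on its own further on and left out of the counts. All 44 had a mean of at least 1 FPKM (read fragments scaled to transcript length and to sequencing depth) in both tables and were tested, so no member was lost to the filter on low values.

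A DNA double-strand break is detected by the complex of MRE11A, RAD50 and NBN, which activates the kinase ATM, while ATR answers to single-stranded DNA at stalled forks. Breaks are then closed either by end joining, which ligates the ends directly and works throughout the cell cycle, or by homologous recombination, which copies the sister chromatid and works after replication. Fanconi proteins unhook crosslinks between strands, and the excision and mismatch pathways remove damaged or wrongly paired bases. In resting blood stem cells end joining is the main route for breaks, and genes of homologous recombination rise when such cells enter the cycle.

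The data were RNA-seq of LSK cells (lineage-negative, cKit+, Sca1+ bone marrow cells, a fraction that holds the blood stem cells and early progenitors) of C57Bl/6 mice. Irradiated mice had received 2.5 Gy from a Cs-137 source and had recovered for at least 9 weeks, and control mice were labelled normal. Freshly sorted libraries (3 control and 3 irradiated) each pooled LSK cells of 3 mice. Cultured libraries (3 in each of 4 groups, 12 in all) each came from 1 mouse: 200 LSK cells grew for 6 days in mSCF, hFlt3L, hIL-11 and hIL-6, with or without DL1, and were sorted again as LSK cells before RNA was taken. DL1 is not spelled out in the labels. They give neither age nor sex of the mice. The source field of control samples names irradiated cells, whereas titles and conditions name controls, and groups follow the titles. All cultured cells, controls included, had been through the same cytokines and a second sort, and the cells that no longer carried the LSK surface markers were not sequenced.

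The sum of all FPKM in a library ranged from 544392 to 576680 after culture and from 762781 to 823321 in fresh cells. Relative depth read from the steps between low values was 0.756 to 1.09 of the first control in cultured libraries except irradiated replicate 2 with DL1, at 0.488, and 0.644 to 1 in freshly sorted ones. KIT and LY6A, which encode the surface markers of the sort, averaged 34.3 to 39.0 FPKM and 496 to 596 FPKM in the 4 cultured groups. The macrophage markers, of which none was at 0 throughout a cultured group, summed to 408 to 646 FPKM in control cultures, 975 to 1551 in irradiated ones, 155 to 180 in control cultures with DL1 and 239 to 248 in irradiated ones with DL1. CD3E, a marker of T cells, was under 0.1 FPKM in every cultured group mean. Of the list of 8 T and NK cell markers, 7 averaged under 1 FPKM in control and in irradiated cultures without DL1. With DL1, 5 did so in each group. In every library of the group, 1 of the 8 was at 0 in control cultures and 3 in irradiated ones without DL1. The list summed to 19.2 to 22.1 FPKM in control cultures and 44.5 to 61.1 in irradiated ones. With DL1 it summed to 39.5 to 49.1 FPKM in control cultures and 46.6 to 57.2 in irradiated ones. In bulk libraries such as these, fewer cells of a type and less RNA per cell cannot be told apart.

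Promoters are shown because 21 of the members were lower together in irradiated cultures, as described further on. RefSeq windows from 250 bases before to 50 bases after the start (GRCm38.p6) were found by symbol for 38 of the 44 members. They were searched on both strands for 4 forms of the E2F site (TTTCCCGC, TTTCGCGC, TTTGCCGC and TTTGGCGC), through which E2F factors switch on genes at the start of replication, for the cell cycle element CHR (TTTGAA), for CCAAT and for the core of the NRF1 site (GCATGCGC). No form of one motif contains another motif. An E2F form was present for 7 of the 38 members with a window, or 18.4%. The share was 4.96% of the 7598 tested genes with a window and 2.6% of all 27025 genes with a window. The 7 genes were MDC1, CHEK2, BRCA2, BARD1, XRCC6, FANCG and MSH6. CCAAT was present in 22 members' windows, or 57.9%, against 43.6% of tested genes. The NRF1 core was present in 6, or 15.8%, against 6.34%, and CHR in 1, or 2.63%, against 14.5%. E2F forms were present for 5 of the 19 members with a window that were lower in irradiated cultures and for 2 of the 19 others. These are matches of letters, and binding was not measured.

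The lines give the 250 bases before the start for the member with the smallest p of each pathway in irradiated cultures, and for XRCC5, added after its values were seen as the partner of XRCC6. Capitals mark the motifs named above on either strand. MDC1 lies at chr17:35841248-35841497 (plus strand), BARD1 at chr1:71102973-71103222 (minus), XRCC6 at chr15:82016119-82016368 (plus), FANCI at chr7:79392088-79392337 (plus), PARP1 at chr1:180568641-180568890 (plus) and XRCC5 at chr1:72307171-72307420 (plus).
MDC1: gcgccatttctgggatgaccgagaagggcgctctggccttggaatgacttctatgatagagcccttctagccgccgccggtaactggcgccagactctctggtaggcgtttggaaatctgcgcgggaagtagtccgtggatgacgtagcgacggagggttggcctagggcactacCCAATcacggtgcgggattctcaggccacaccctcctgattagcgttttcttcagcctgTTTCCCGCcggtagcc
BARD1: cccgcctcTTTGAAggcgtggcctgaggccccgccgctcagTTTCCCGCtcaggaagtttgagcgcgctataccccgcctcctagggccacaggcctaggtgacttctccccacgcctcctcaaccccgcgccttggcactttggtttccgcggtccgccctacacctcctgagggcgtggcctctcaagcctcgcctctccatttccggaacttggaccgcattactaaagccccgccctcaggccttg
XRCC6: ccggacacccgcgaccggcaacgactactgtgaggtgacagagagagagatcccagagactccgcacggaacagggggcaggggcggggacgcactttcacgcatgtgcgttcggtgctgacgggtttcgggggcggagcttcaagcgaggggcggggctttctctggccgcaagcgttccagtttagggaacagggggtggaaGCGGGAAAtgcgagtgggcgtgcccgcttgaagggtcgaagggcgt
FANCI: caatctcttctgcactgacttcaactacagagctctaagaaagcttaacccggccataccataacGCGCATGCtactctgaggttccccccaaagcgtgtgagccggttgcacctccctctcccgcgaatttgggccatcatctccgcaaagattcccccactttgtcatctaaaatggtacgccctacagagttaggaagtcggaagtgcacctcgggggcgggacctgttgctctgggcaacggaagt
PARP1: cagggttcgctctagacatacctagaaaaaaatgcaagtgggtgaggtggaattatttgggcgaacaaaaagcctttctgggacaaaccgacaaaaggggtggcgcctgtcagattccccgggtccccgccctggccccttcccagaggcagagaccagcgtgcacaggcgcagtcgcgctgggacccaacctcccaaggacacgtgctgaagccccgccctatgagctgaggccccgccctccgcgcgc
XRCC5: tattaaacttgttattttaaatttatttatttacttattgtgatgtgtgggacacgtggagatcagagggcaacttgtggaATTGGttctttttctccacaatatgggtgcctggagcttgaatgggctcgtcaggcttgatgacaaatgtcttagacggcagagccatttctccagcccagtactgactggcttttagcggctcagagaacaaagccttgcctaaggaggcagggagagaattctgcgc
The E2F form of MDC1 ended 9 bases before the start, with a CCAAT 71 bases before it. That of XRCC6 stood on the reverse strand and ended 39 bases before the start, and that of BARD1 ended 202 bases before it. FANCI carried an NRF1 core and PARP1 none of the motifs in these 250 bases. XRCC5, whose product pairs with that of XRCC6, carried a CCAAT on the reverse strand and no E2F form here. In bases not printed, an NRF1 core was found for XRCC5 and a CCAAT for XRCC6.

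In cultured controls the members covered a wide range of levels per transcript length. APEX1, the main endonuclease for abasic sites, averaged 96.6 ± 2.8 FPKM (SD, n = 3) and PARP1, which marks strand breaks with ADP-ribose, 87.7 ± 1.6. LIG4, the ligase of end joining, was lowest at 1.52 ± 0.054. Of the 44 members, 7 averaged above 20 FPKM, 32 between 5 and 20, and 5 below 5. The median coefficient of variation among replicates of a gene was 5.88% in control cultures and 10.7% in fresh controls.

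The fresh and cultured tables had been scaled separately, so levels across them are given as percentiles among each table's genes and were not tested. ATM stood at percentile 71.6 in fresh controls and at 51.2 in cultured controls. RAD50 went from 91.6 to 74.8, UNG, the glycosylase that removes uracil from DNA, from 91.9 to 70.2, and XRCC5 from 74.7 to 53.2. Of the 8 Fanconi genes 6 stood higher in cultured controls, and FANCL and FANCG stood lower, at 64.4 and 58.0 for FANCL and 65.1 and 63.0 for FANCG. FANCA, a subunit of the Fanconi ubiquitin ligase core, went from 43.8 to 62.1 and FANCD2, the protein that this core ubiquitinates, from 44.5 to 62.4. The recombination genes were split. RAD54L, the motor protein that helps strands pair in recombination, went from 64.6 to 75.4, and BRCA1, PALB2, BLM and XRCC2 also stood higher in cultured controls. RAD52 went from 70.0 to 57.5, XRCC3 from 69.3 to 57.9, BRCA2 from 60.2 to 51.7 and BARD1 from 59.1 to 55.1.

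In freshly sorted cells, the comparison of irradiated with control mice asks whether repair genes were still altered weeks after exposure. None of the 44 members passed an adjusted p of 0.05 (limma on log2(FPKM + 1), Benjamini-Hochberg), where 0.0698% of 12890 genes tested were called higher and 0.031% lower. No member had an unadjusted p under 0.05 either, against 885 of all genes. Members' log2 changes lay between -0.17 and 0.22, with a median of 0.02 against 0.01 over all genes. FANCD2 had the smallest p: it was 3.62, 3.54 and 3.26 FPKM in controls and 4.22, 4.10 and 4.31 in irradiated mice. The groups did not overlap, and the log2 change was 0.22 ± 0.10 (SE), with an adjusted p of 0.758. MDC1, the scaffold that binds marked chromatin at breaks, and XRCC2, which helps load the recombinase, also had groups that did not overlap, with log2 changes of 0.11 ± 0.072 and 0.22 ± 0.11. Groups did not overlap for 12.7% of all genes tested.

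The damage kinases were close between fresh groups. ATM measured 14.3, 13.6 and 15.4 FPKM in controls and 14.6, 13.4 and 14.2 in irradiated mice. ATR measured 9.77, 8.31 and 9.38 in controls and 8.93, 9.21 and 7.98 in irradiated mice. Both genes overlapped between the groups. In simulated data for this comparison, 50% of genes changed by 0.5 on the log2 scale were recovered and 88% of those changed by 1, so changes under 0.5 could often not be detected here.

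**Figure D1:**
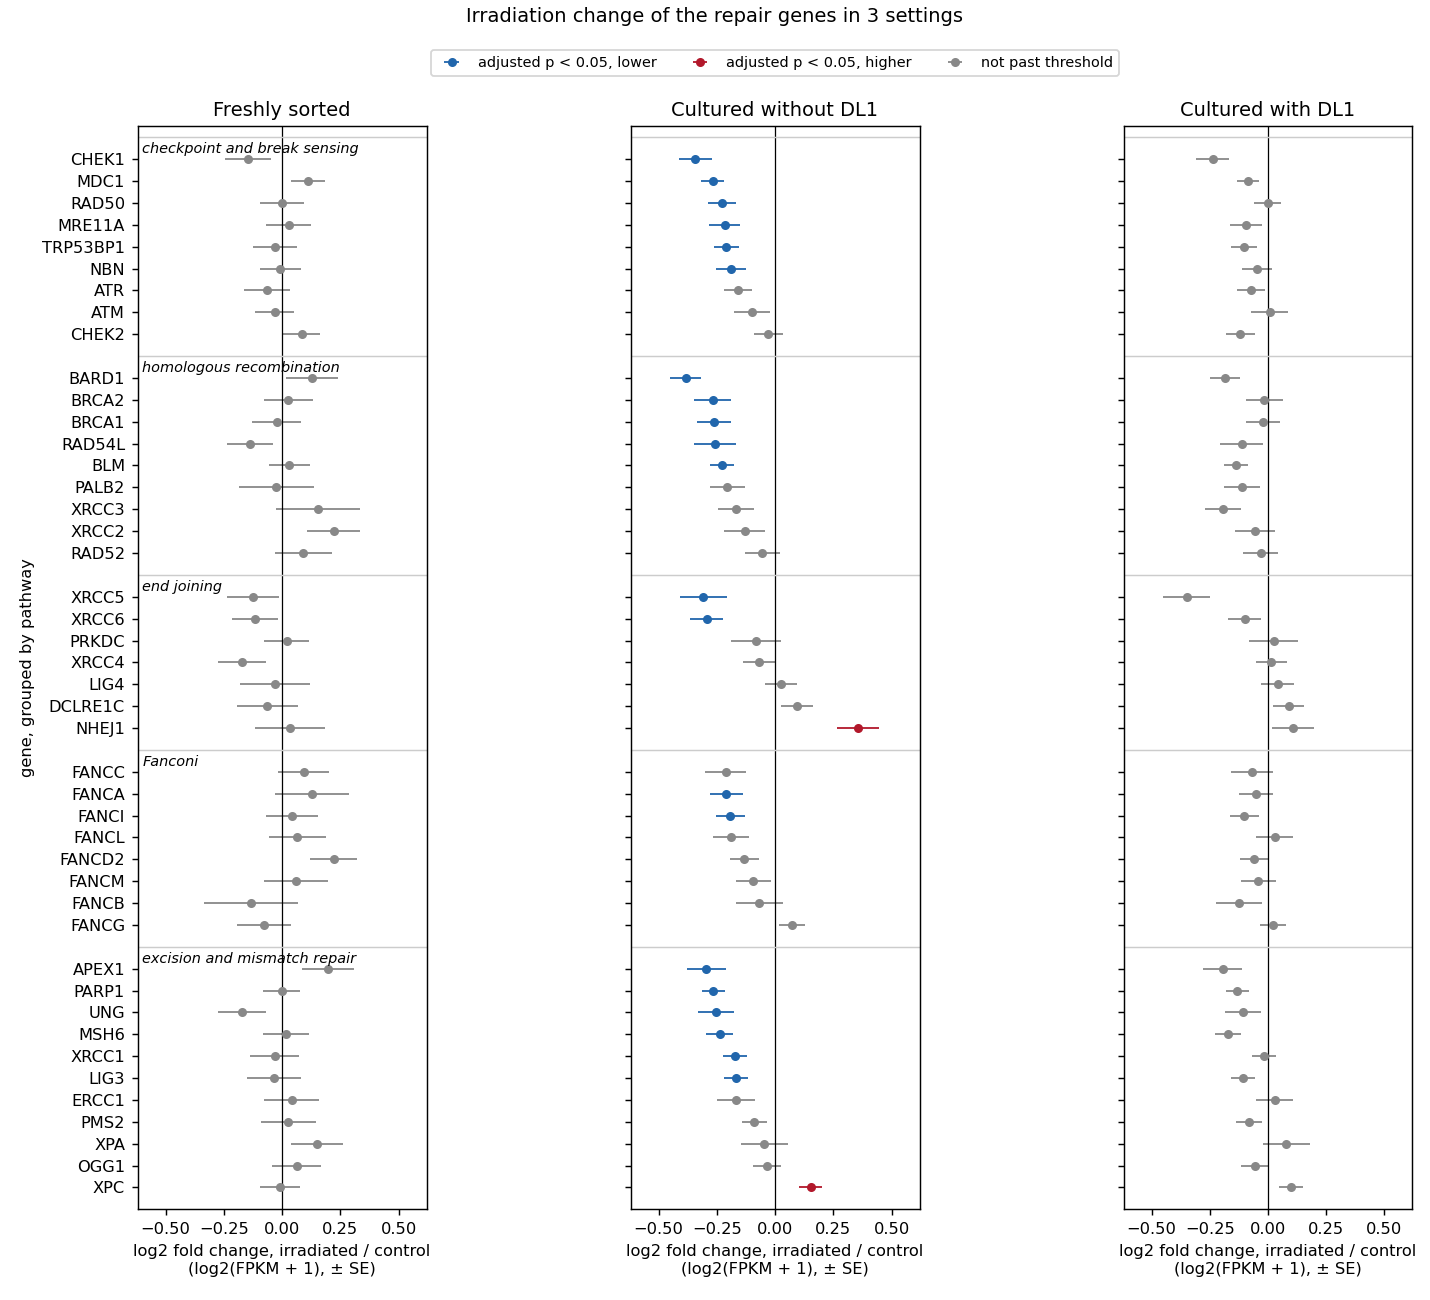
Log2 fold change of irradiated over control on the log2(FPKM + 1) scale (x axis, points with SE bars) for 44 repair genes (y axis, grouped by pathway) in freshly sorted cells and in cultures without and with DL1, 3 libraries a group. Blue and red points have an adjusted p under 0.05: 21 genes lower and 2 higher in cultures without DL1, and none in the other panels.

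After culture without DL1 more members were called, in a comparison that detects smaller changes. In simulated data 88% of genes changed by 0.5 on the log2 scale were recovered here, against 50% in fresh cells. The counts of calls in the 2 settings are therefore not directly comparable. Both simulations changed only genes above the lowest levels, so these shares may not hold for low members. Each changed 100 genes by each size, whereas 3568 genes were called in the real cultured comparison and 13 in fresh cells. What passes an adjusted p depends on how many genes change, so these shares are not the sensitivity of the real tests. In irradiated cultures 21 of 44 members (47.7%) were lower than in control cultures, against 15.9% of 12011 genes tested, and 2 members (NHEJ1 and XPC) were higher, against 13.8%. The lower members fell by 11.1 to 23.4% on the scale of FPKM + 1, and 20 of the 21, counted among members already called, had groups that did not overlap. Over all 44 members, called or not, groups did not overlap for 25, against 38.1% of genes tested. Of all 44, 39 were below 0, and their median log2 change was -0.18 against -0.03 over all genes. The calls were 6 of 9 checkpoint genes, 5 of 9 of recombination, 6 of 11 of excision and mismatch repair, 2 of 7 of end joining and 2 of 8 Fanconi genes. Without control replicate 1 the count lower was 11, without control replicate 2 it was 8, without irradiated replicate 1 it was 8 and without irradiated replicate 2 it was 13. Fitted on these 2 groups alone it was 5.

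Among checkpoint genes, CHEK1, the kinase that ATR activates to hold the cell cycle, measured 12.8, 12.8 and 11.3 FPKM in control cultures and 8.49, 10.1 and 9.89 in irradiated ones. Every irradiated library lay below every control, and the log2 change was -0.34 ± 0.070 (SE), adjusted p = 0.00461. MDC1 measured 18.8, 18.9 and 17.4 FPKM in controls and 14.9, 15.4 and 14.96 in irradiated cultures. Its irradiated libraries were tightly grouped below the controls, at a log2 change of -0.27 ± 0.048, adjusted p = 0.00242. The 3 genes of the break-sensing complex were all called lower: RAD50 at -0.23, MRE11A at -0.22 and NBN at -0.19. TRP53BP1, which shields broken ends from resection, changed by -0.21, adjusted p = 0.0151.

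The apical kinases and CHEK2 did not pass the test. ATM measured 5.34, 5.78 and 4.78 FPKM in controls and 4.71, 5.29 and 4.64 in irradiated cultures, which overlapped, with a log2 change of -0.10 ± 0.079 and adjusted p of 0.371. ATR measured 11.9, 11.1 and 10.4 FPKM in controls and 9.30, 10.3 and 9.95 in irradiated cultures. Its groups did not overlap, but the log2 change of -0.16 ± 0.059 had an adjusted p of 0.0617. CHEK2, the kinase downstream of ATM, overlapped between groups, at 13.6 to 15.7 FPKM in irradiated cultures and 14.6 to 15.1 in controls.

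Among recombination genes, BARD1, the partner of BRCA1 in a ubiquitin ligase, measured 7.14, 7.14 and 6.66 FPKM in controls and 4.99, 5.54 and 4.83 in irradiated cultures. The groups were well apart, and its log2 change of -0.38 ± 0.065 was the lowest of all members (adjusted p = 0.00177). BLM, the helicase that dissolves joined DNA molecules, measured 17.8, 17.3 and 15.9 FPKM in controls and 13.7, 14.3 and 15.02 in irradiated cultures. All 3 irradiated libraries lay below the controls, at -0.23 ± 0.053, adjusted p = 0.00862. BRCA1, which steers breaks towards recombination, measured 12.1, 11.99 and 10.4 FPKM in controls and 8.40, 10.4 and 9.54 in irradiated cultures. Control replicate 3 and irradiated replicate 2 nearly met, and the change was -0.26 ± 0.074, adjusted p = 0.0201.

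BRCA2, which loads the recombinase onto DNA, measured 5.67, 6.05 and 4.79 FPKM in controls and 3.98, 4.80 and 4.40 in irradiated cultures. It was the called member whose groups overlapped, by control replicate 3 and irradiated replicate 2, at -0.27 ± 0.080, adjusted p = 0.0257. The calls of BRCA1 and BRCA2 were lost without control replicate 1, control replicate 2 or irradiated replicate 1. RAD52, an annealing factor, measured 7.93, 8.40 and 8.28 FPKM in controls and 6.89, 7.88 and 8.93 in irradiated cultures. Its irradiated libraries lay on either side of the controls, at -0.05 ± 0.077, adjusted p = 0.630.

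**Figure D2:**
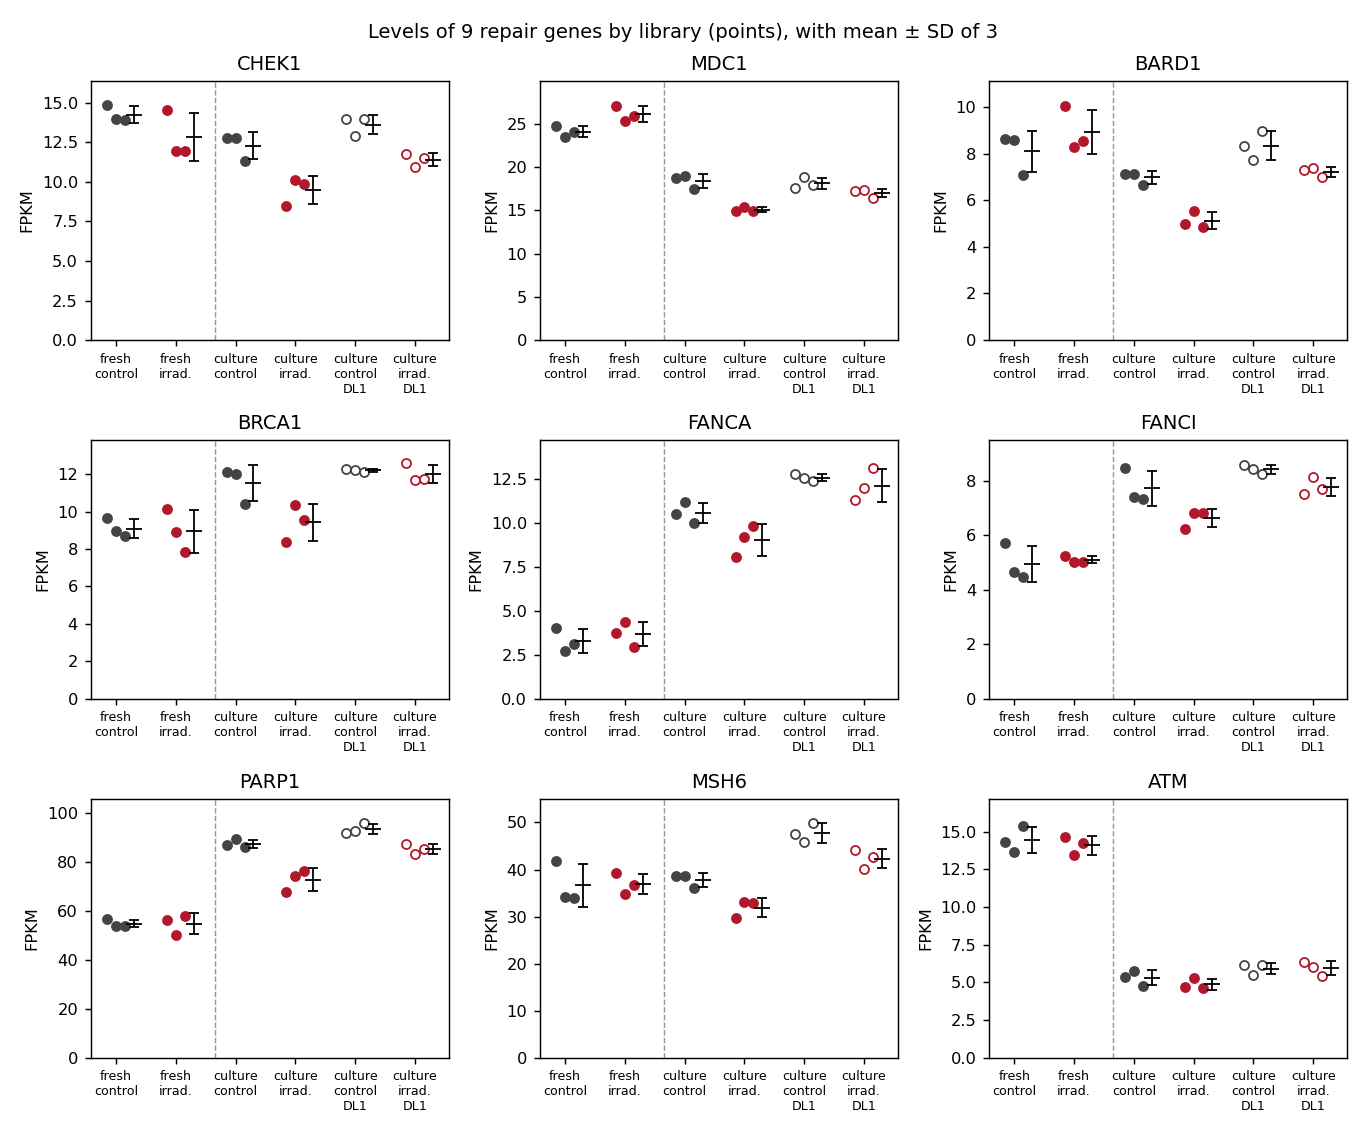
FPKM (y axis, from 0) of 9 repair genes in each library (points) of the 6 groups (x axis), with mean and SD of 3 beside them; filled points without DL1, open points with DL1, and a dashed line between the separately scaled fresh and cultured tables. In CHEK1, MDC1, BARD1, BRCA1, FANCA, FANCI, PARP1 and MSH6 every irradiated culture without DL1 lies below every control culture. The groups of BRCA1 nearly meet, and those of ATM overlap.

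The Fanconi genes showed fewer calls. FANCI, which FANCD2 pairs with on crosslinked DNA, measured 8.45, 7.40 and 7.32 FPKM in controls and 6.25, 6.82 and 6.82 in irradiated cultures, at -0.19 ± 0.062, adjusted p = 0.0359. FANCA measured 10.54, 11.2 and 10.03 FPKM in controls and 8.06, 9.22 and 9.83 in irradiated cultures, at -0.21 ± 0.072, adjusted p = 0.0470. Both had groups that did not overlap, and the calls were lost in 8 and 10 of 15 alternative settings. FANCD2 measured 11.5, 10.7 and 10.1 FPKM in controls and 8.92, 10.1 and 10.3 in irradiated cultures. It overlapped between groups and did not pass, at -0.13 ± 0.062, adjusted p = 0.129.

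In excision and mismatch repair, PARP1 measured 87.3, 89.4 and 86.3 FPKM in controls and 67.8, 74.3 and 76.6 in irradiated cultures. Every irradiated library was below every control, at -0.26 ± 0.048, adjusted p = 0.00251. MSH6, which recognises mismatched bases, measured 38.6, 38.6 and 36.0 FPKM in controls and 29.6, 33.1 and 33.0 in irradiated cultures. These groups did not overlap either, at -0.24 ± 0.057, adjusted p = 0.0104. APEX1, UNG, XRCC1 and LIG3, which act in base excision repair, were also called lower, between -0.30 and -0.17.

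XPC, which finds distorted helices for nucleotide excision repair, went the other way. It measured 20.3, 19.98 and 18.1 FPKM in controls and 22.0, 21.8 and 21.5 in irradiated cultures. The irradiated libraries were all above the controls, at 0.15 ± 0.050, adjusted p = 0.0373, a call that was lost in 7 of 15 settings. XPA, OGG1, PMS2 and ERCC1, of nucleotide excision, oxidised base and mismatch repair, did not pass the test.

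The row that joins ERCC2 with MIR343 measured 20.7, 21.2 and 21.4 FPKM in control cultures and 15.6, 19.7 and 16.1 in irradiated ones. These did not overlap, at -0.29 ± 0.095, adjusted p = 0.0370 by limma, a call lost in 8 of 15 settings. With DL1 it measured 20.5, 20.6 and 21.8 FPKM in control cultures and 18.3, 24.0 and 20.4 in irradiated ones, which overlapped. DL1 changed it by 0.27 ± 0.095 in irradiated cultures, adjusted p = 0.0370, a call lost in 7 of 15 settings. In fresh cells it measured 5.13, 7.56 and 4.25 FPKM in controls and 4.05, 5.11 and 5.83 in irradiated mice, and did not pass.

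Among alternatives, BARD1, CHEK1, MDC1, MSH6 and PARP1 kept their lower call in all 15 settings tried, and the other 18 of the 23 calls were lost in at least 1. Libraries also differed within the irradiated group. The summed FPKM of the recombination genes was 70.8, 80.5 and 85.1 in irradiated replicates 1, 2 and 3 and 88.4 to 96.3 in control cultures. The summed macrophage markers were 1551, 1287 and 975 FPKM in the same 3 irradiated libraries. Replicate 1 was lowest for the recombination genes and highest for the macrophage markers. Sums of replication genes (1524, 1749 and 1853 FPKM) and mitosis genes (882, 958 and 1066) rose in the order of the recombination genes. Erythroid markers did so too, at 9.53, 15.3 and 23.3 FPKM. The megakaryocyte markers fell in the order of the macrophage markers, at 273, 255 and 197 FPKM. The neutrophil markers followed neither order, at 2839, 3245 and 2002 FPKM, nor did the mast cell and basophil markers, at 142, 168 and 158. Markers of T and NK cells followed neither, at 48.3, 61.1 and 44.5 FPKM, nor did those of B cells and LSK cells. The part of such cells in the result was not tested.

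Genes of DNA replication and of mitosis moved with the members. Of 30 replication genes tested 23 were lower, with a median of -0.25, and of 21 mitosis genes 19 were lower, with a median of -0.35. MKI67, a marker of cycling cells, stood at -0.52 ± 0.071 and RRM2, a subunit of the enzyme that makes deoxynucleotides, at -0.35 ± 0.064. The part of cycling in the lower repair genes was not tested. All 11 tested macrophage markers were higher, with a median of 1.61. Of other cell types' markers, 5 of 7 neutrophil genes tested were higher (median 0.62), and the list summed to 1199 to 1299 FPKM in controls and 2002 to 3245 in irradiated cultures. All 3 megakaryocyte genes tested were higher (median 1.35), with sums of 79.7 to 107 and 197 to 273 FPKM, and 6 of 9 mast cell and basophil genes were higher (median 0.76), with sums of 82.5 to 95.4 and 142 to 168 FPKM. The 1 erythroid gene tested was lower, with sums of 29.4 to 35.3 and 9.53 to 23.3 FPKM. Of 2 T and NK cell genes tested 1 was higher, with sums of 19.2 to 22.1 and 44.5 to 61.1 FPKM. The 1 B cell gene tested was lower. Of 7 tested markers of LSK cells and early progenitors, 3 were lower. The part of these cell types in the repair genes' change was not tested. Of 18 tested targets of p53, the factor that ATM and ATR activate, 4 were higher and 1 lower, with a median of 0.11. Those higher were TRP53INP1, GADD45A, BTG2 and SESN1, and the lower one was PMAIP1. Beyond the members, 22 of 69 other repair genes tested were lower and 1 was higher, with a median of -0.13. Among them were DNA2, a nuclease that resects broken ends, at -0.26 ± 0.048, CLSPN, the adaptor between ATR and CHEK1, at -0.31 ± 0.072, and RAD23B, the partner of XPC, at -0.26 ± 0.045.

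**Figure D3:**
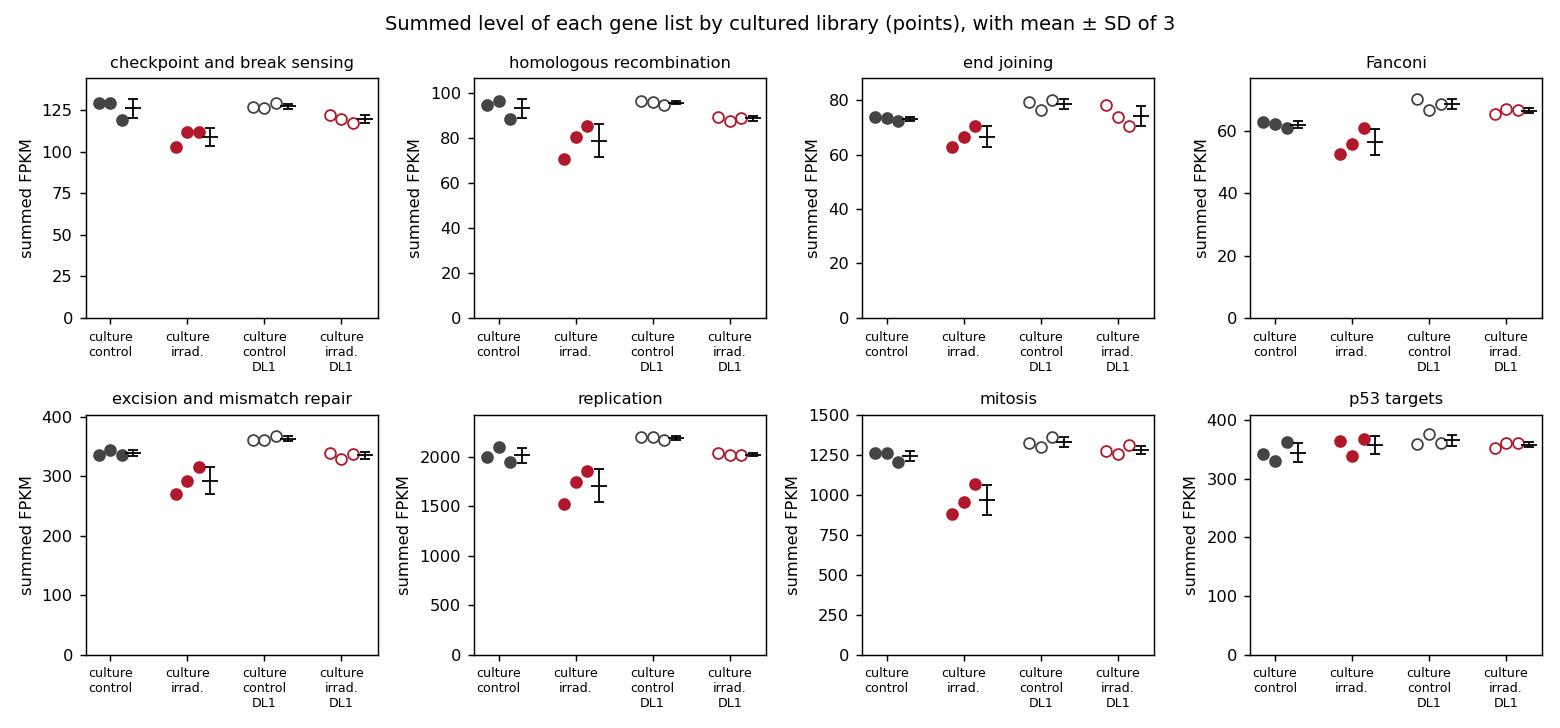
Summed FPKM (y axis, from 0) of the 5 repair pathways and of the replication, mitosis and p53 target lists in each cultured library (points; x axis, the 4 cultured groups), with mean and SD of 3. In the irradiated group without DL1 the recombination sum runs from 70.8 to 85.1, below the 88.4 to 96.3 of the controls, and the replication and mitosis sums are lower too.

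In cultures with DL1, irradiated and control libraries did not differ past the threshold for any member. The background was 2.51% of genes called higher and 0.649% lower. Of the 44 members 8 had an unadjusted p under 0.05, against 2231 of all genes, 33 lay below 0, and the median log2 change was -0.06. Over all 12011 genes 6658 lay below 0, with a median of -0.02. Groups did not overlap for 17 of the 44 members, against 33.1% of genes tested. CHEK1 measured 14.0, 12.9 and 14.0 FPKM in control cultures with DL1 and 11.8, 10.9 and 11.5 in irradiated ones. These groups did not overlap, and the log2 change was -0.24 ± 0.070 with an adjusted p of 0.0962. BARD1 measured 8.33, 7.72 and 8.97 against 7.29, 7.37 and 6.99 FPKM. Its groups did not overlap either, at -0.18 ± 0.065, adjusted p = 0.156.

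Whether the change after irradiation itself differed with DL1 was tested as an interaction. No member passed by limma, where 0.025% of genes were called higher and 0.05% lower, and 5 members had an unadjusted p under 0.05, against 1255 of 12011 genes. The difference was above 0 for 35 of 44 members and for 6553 of 12011 genes, with a median of 0.10 against 0.02 over all genes. A value above 0 means a less negative or more positive change with DL1. RAD50 had the smallest p, at 0.23 ± 0.083, adjusted p = 0.361, followed by MDC1 at 0.18 ± 0.068, adjusted p = 0.386. A smaller change with DL1 was therefore not shown by the test for any single member.

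DL1 itself was compared with its absence in control cultures. There, 4 members were higher (9.09%, background 14%) and 2 were lower (4.55%, background 12.3%), so members were called no more often than genes at large. The 4 were XRCC5, MSH6, BARD1 and FANCA, and the 2 were XRCC4 and DCLRE1C. Over all 44 members groups did not overlap for 17, against 48.3% of genes tested, so separate groups were common among genes at large. MSH6 measured 47.6, 45.8 and 49.97 FPKM with DL1 and 38.6, 38.6 and 36.0 without. The groups lay far apart, at 0.33 ± 0.057, adjusted p = 9.67e-04. BARD1 measured 8.33, 7.72 and 8.97 FPKM with DL1, all above the 6.66 to 7.14 of the controls, at 0.23 ± 0.065, adjusted p = 0.0232. FANCA measured 12.8, 12.5 and 12.4 FPKM with DL1, all above its controls, at 0.23 ± 0.072, adjusted p = 0.0342. The call of BARD1 was lost in 5 of 15 settings and that of FANCA in 8 of 15, median-ratio scaling among them for both. Of 69 other repair genes tested 12 were higher with DL1 and 1 lower, and 5 of 30 replication and 3 of 21 mitosis genes were higher. Of other cell types' markers, 10 of 11 macrophage genes (median -1.59) and 5 of 7 neutrophil genes (median -1.38) were lower with DL1, and both T and NK cell genes tested were higher (median 1.69). Of 9 mast cell and basophil markers 3 were higher, as was 1 of 3 megakaryocyte markers, and the 1 erythroid gene tested was lower. Of 7 tested markers of LSK cells and early progenitors 3 were higher and 1 lower (median 0.27). The part of these cell types in these calls was not tested.

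In irradiated cultures more members were called, and the test of the difference between the settings is the interaction above. Here 20 members were higher (45.5%, background 24.4%) and 2 lower (4.55%, background 17%), with a median log2 change of 0.16 against 0.06 over all genes. The higher members were 5 of 9 checkpoint genes, 4 of 9 of recombination, 2 of 7 of end joining, 5 of 8 Fanconi genes and 4 of 11 of excision and mismatch repair. Over all 44 members groups did not overlap for 24, against 48.4% of genes tested. The irradiated cultures without DL1 serve in this comparison and in the one after irradiation, so their low values enter both. The count higher was 11 under median-ratio scaling, 8 without irradiated replicate 1, 11 without irradiated replicate 1 with DL1 and 12 without irradiated replicate 2 with DL1. With the replicate number as a block it was 19, and RAD50 and FANCD2 lost their call, with adjusted p of 0.0578 and 0.0682 by limma, while PRKDC gained one, at 0.25 ± 0.087 and an adjusted p of 0.0436 in place of 0.0793.

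BARD1 measured 7.29, 7.37 and 6.99 FPKM in irradiated cultures with DL1 and 4.99, 5.54 and 4.83 in those without. No libraries overlapped, at 0.43 ± 0.065, adjusted p = 3.01e-04. BRCA1 measured 12.6, 11.7 and 11.8 FPKM with DL1, all above the 8.40 to 10.4 without, at 0.32 ± 0.074, adjusted p = 0.00459. In the Fanconi pathway, FANCA measured 11.3, 11.97 and 13.1 FPKM with DL1 against 8.06, 9.22 and 9.83 without, at 0.39 ± 0.072, adjusted p = 0.00120. FANCC, another subunit of the core, measured 5.46, 6.11 and 5.19 FPKM with DL1 against 3.83, 4.05 and 4.95 without, at 0.32 ± 0.089, adjusted p = 0.0123. Neither Fanconi gene overlapped between groups.

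CHEK1 measured 11.8, 10.9 and 11.5 FPKM with DL1 against 8.49, 10.1 and 9.89 without, at 0.24 ± 0.070, adjusted p = 0.0154. MDC1 measured 17.2, 17.3 and 16.5 FPKM with DL1 against 14.9, 15.4 and 14.96 without, at 0.16 ± 0.048, adjusted p = 0.0179. Both sets of libraries were separate. MSH6 measured 44.2, 40.2 and 42.6 FPKM with DL1 against 29.6, 33.1 and 33.0 without, at 0.40 ± 0.057, adjusted p = 1.86e-04. PARP1 measured 87.3, 83.4 and 85.6 FPKM with DL1 against 67.8, 74.3 and 76.6 without, at 0.23 ± 0.048, adjusted p = 0.00262. Of the 22 calls, those of BARD1, BRCA1, FANCA, MSH6, PARP1, XRCC5, XRCC4 and DCLRE1C held in every setting tried.

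ATM, which had not passed in the other cultured comparisons, measured 6.38, 6.01 and 5.45 FPKM in irradiated cultures with DL1 and 4.71, 5.29 and 4.64 without. The groups did not overlap, at 0.24 ± 0.079, adjusted p = 0.0287, a call that was lost in 8 of 15 settings, median-ratio scaling among them. Beside the members, 25 of 30 replication genes (median 0.25), 20 of 21 mitosis genes (median 0.38) and 36 of 69 other repair genes (median 0.19) were higher, while all 11 macrophage markers were lower (median -2.55). All 7 neutrophil markers tested were lower too (median -1.04). Of 3 megakaryocyte markers 2 were lower and 1 was higher (median -1.79), and of 9 mast cell and basophil markers 3 were lower and 2 higher. Of 2 T and NK cell markers tested 1 was higher. The 1 erythroid gene tested was lower, and the 1 B cell gene tested was higher. Of 7 tested markers of LSK cells and early progenitors 4 were higher and 1 lower (median 0.35). Their part in the repair genes' change was not tested.

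**Figure D4:**
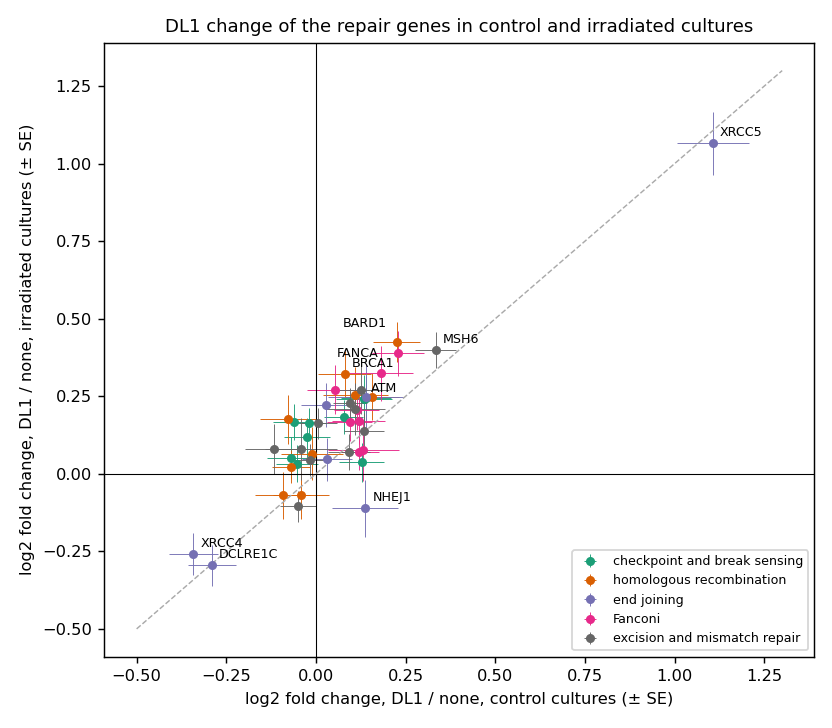
Log2 fold change of DL1 over none, on the log2(FPKM + 1) scale with SE bars, in control cultures (x axis) and irradiated cultures (y axis) for 44 repair genes, coloured by pathway, 3 libraries a group. The dashed line marks equal change; XRCC5 stands alone at the upper right, at 1.11 and 1.07, and XRCC4 and DCLRE1C lie at the lower left.

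The end joining genes did not move as a group. XRCC5 and XRCC6 encode the Ku ring that slides onto broken ends, PRKDC the kinase that Ku recruits, DCLRE1C (Artemis) the nuclease that opens hairpins, and XRCC4, NHEJ1 and LIG4 the factors that align and ligate the ends. XRCC5 measured 6.19, 6.17 and 5.94 FPKM in control cultures and 13.7, 13.2 and 16.1 in control cultures with DL1. It measured 4.04, 5.26 and 4.97 in irradiated cultures and 12.4, 9.65 and 11.1 in irradiated cultures with DL1. Every library with DL1 was above every library without it, at 1.11 ± 0.10 in controls (adjusted p = 1.01e-05) and 1.07 ± 0.10 in irradiated cultures (adjusted p = 7.51e-06). No other member rose by as much with DL1 in these tests.

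Irradiated cultures were lower than controls for XRCC5 without DL1, at -0.31 ± 0.10, adjusted p = 0.0372, a call lost in 9 of 15 settings. With DL1 the change was of like size, at -0.35 ± 0.10, but did not pass, with an adjusted p of 0.0883. In fresh cells XRCC5 measured 18.9, 14.8 and 16.6 FPKM in controls and 16.9, 13.8 and 14.98 in irradiated mice, which overlapped.

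XRCC6, the other Ku subunit, did not follow XRCC5 with DL1 in controls. It measured 36.9, 38.0 and 35.3 FPKM in control cultures and 37.7, 36.7 and 38.1 with DL1, which overlapped, at 0.03 ± 0.071, adjusted p = 0.803. In irradiated cultures without DL1 it measured 26.8, 29.5 and 33.4 FPKM, all below the controls, at -0.29 ± 0.071, adjusted p = 0.0104. With DL1 the irradiated libraries measured 36.6, 35.6 and 32.7 FPKM, at 0.22 ± 0.071, adjusted p = 0.0249, and overlapped with those without.

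XRCC4 and DCLRE1C were lower with DL1 in both kinds of culture. XRCC4 measured 9.07, 7.96 and 8.60 FPKM in control cultures and 6.69, 6.68 and 6.22 with DL1, at -0.34 ± 0.068, adjusted p = 0.00263. In irradiated cultures it measured 7.91, 8.52 and 7.87 FPKM without DL1 and 7.26, 6.29 and 6.28 with it, at -0.26 ± 0.068, adjusted p = 0.00940. Every library with DL1 was below every library without it. DCLRE1C measured 12.2, 11.8 and 13.4 FPKM in control cultures and 10.9, 9.95 and 9.22 with DL1, at -0.29 ± 0.067, adjusted p = 0.00712. In irradiated cultures it measured 13.6, 12.7 and 13.8 FPKM without DL1 and 10.3, 11.1 and 10.8 with it, at -0.30 ± 0.067, adjusted p = 0.00435. These groups were separate as well.

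NHEJ1 was higher in irradiated cultures without DL1, opposite to the Ku genes. It measured 4.13, 3.72 and 4.35 FPKM in controls and 5.45, 5.11 and 5.88 in irradiated cultures, with no overlap, at 0.36 ± 0.091, adjusted p = 0.0137. The call was lost without control replicate 2. With DL1 its groups overlapped, at 4.64, 4.32 and 4.73 FPKM in controls and 5.10, 5.76 and 4.21 in irradiated cultures. The difference between these changes was -0.25 ± 0.13, adjusted p = 0.527.

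PRKDC and LIG4 passed in none of the 6 tests without the replicate block, and the block changed this for PRKDC with DL1 in irradiated cultures, as given above. PRKDC measured 3.60, 4.17 and 3.01 FPKM in control cultures and 3.48, 3.67 and 2.84 in irradiated ones, at -0.08 ± 0.11, adjusted p = 0.594. LIG4 measured 1.52, 1.46 and 1.57 FPKM in controls and 1.505, 1.68 and 1.51 in irradiated cultures, at 0.03 ± 0.070, adjusted p = 0.812. Both overlapped, and at these levels the added 1 FPKM compresses differences.

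**Figure D5:**
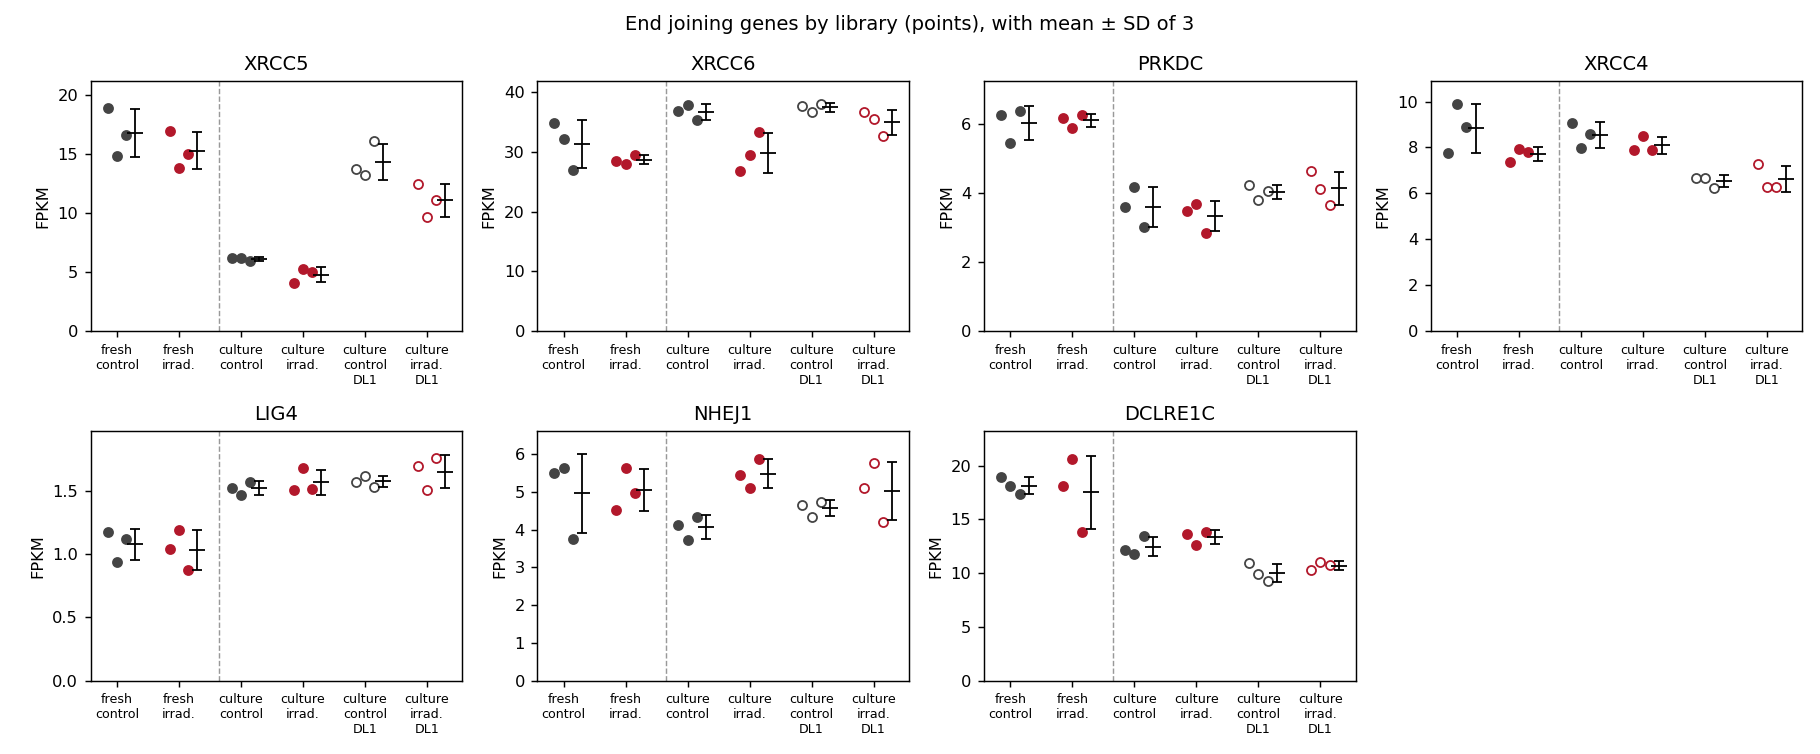
FPKM (y axis, from 0) of the 7 end joining genes in each library (points) of the 6 groups (x axis), with mean and SD of 3; filled points without DL1, open points with DL1, and a dashed line between the separately scaled fresh and cultured tables. XRCC5 is at 4.04 to 6.19 FPKM in all cultures without DL1 and at 9.65 to 16.1 in all with it, while XRCC6 shows no such step.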

How the data were processed

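RNA-seq of 18 libraries in 6 groups of 3 was used, as 2 separately scaled gene tables. The deposited values are FPKM, which the authors made with TopHat 1.4.1, Cufflinks 1.3.0 and Cuffdiff, per the submitters' processing notes. The notes give hg19, a human build, for these mouse samples, and the annotation is not given in the sources used here. The column IR1DL1 was taken as irradiated replicate 1 with DL1. Nothing was tested across the tables.

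Values were analysed as log2(FPKM + 1), a scale that understates changes of low genes, using limma 3.58.1 (R 4.3.3) and its empirical Bayes step with a trend on the mean. Genes with a mean of at least 1 FPKM over a table's libraries were tested, and p-values (two-sided) were adjusted by Benjamini-Hochberg over all of them, and called under 0.05. One fit covered the 4 cultured groups. Of names given on more than 1 row, 28 in all, 1 row was kept. Script steps were tested on simulated data. FPKM carry no read counts, so no count model was fitted. Each culture came from 1 mouse and each fresh library from a pool of 3 mice, per the labels' protocols. The labels do not say whether a replicate number marks a shared mouse or day. Whether replicate numbers pair samples was checked by correlating same-numbered libraries' deviations from their group means. All 3 pairs exceeded 0.1 only between irradiated cultures with and without DL1 (0.145 to 0.355). The labels do not say that these libraries were paired. Counts, SE and adjusted p for that comparison come from the fit without a block, unless the block is named. The fit with the replicate number as a block, over all 4 cultured groups, is given beside it as an alternative. Between irradiated and control cultures without DL1 the range was -0.129 to 0.158 and in fresh cells 0.0571 to 0.211.

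The members and lists were chosen with earlier results of these data known. Per-library values are given for called members with the 2 smallest p per pathway and comparison, and for ATM, ATR, CHEK1, BRCA1, BRCA2, RAD52, PRKDC, XRCC5, LIG4, FANCD2, FANCA, PARP1, XPC and MSH6. Alternatives were other pseudocounts, filters, scalings, a fit without trend, a replicate block, fits on the compared groups alone and leaving out each library.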

Additional observations from a re-analysis of the deposited data

How the results depend on the processing

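Of 51 calls of single members, 17 held in all alternatives and 34 were lost in at least 1. For irradiated against control cultures without DL1, the 21 members lower became 13 with no filter on the mean, 5 in a fit on the compared groups alone, and 8 to 25 when 1 library was left out. The 2 higher became 1 with a mean of at least 5 FPKM (where NHEJ1 was not tested), without ribosomal and small RNA-like rows, under the replicate block and on the compared groups alone, and 0 to 2 with 1 library left out. With DL1, 2 members were lower on the compared groups alone. For DL1 in control cultures, the 4 higher became 2 under median-ratio scaling, 2 without ribosomal and small RNA-like rows, and 2 to 4 with 1 library left out. For DL1 in irradiated cultures, the 20 higher became 11 under median-ratio scaling, 10 on the compared groups alone and 8 to 20 with 1 library left out. The cause of these shifts was not tested.

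With 1 library left out, the uncalled change after irradiation without DL1 turned sign for RAD52 (-0.14 to 0.030), for PRKDC (-0.18 to 0.0073) and for LIG4 (-0.0063 to 0.043). The change of XRCC6 with DL1 in controls was -0.012 under median-ratio scaling and -0.00682 without ribosomal and small RNA-like rows.

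Scaling moved the split of all called genes. The share higher went from 46.5 to 57.5% for irradiated cultures, from 53.1 to 42.2% for DL1 in controls and from 59.0 to 45.2% for DL1 in irradiated cultures under median-ratio scaling. In fresh cells it went from 69.2 to 56% of a few calls without ribosomal and small RNA-like rows.

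In a fit with the replicate number as a block, the members lower in irradiated cultures without DL1 numbered 18 (XRCC5, FANCA and FANCI lost their call) and the members higher 1 (XPC lost its call). Their adjusted p were 0.0504 to 0.0541, and these libraries share only a number. Beside RAD50, FANCD2 and PRKDC with DL1 in irradiated cultures, the block changed no other call of a member.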

Other observations

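Among the 69 other repair genes tested, MGMT, which removes alkyl groups from guanine, was lower with DL1, against the direction of most calls in that list. It measured 3.24, 3.55 and 3.68 FPKM in control cultures and 1.85, 1.96 and 2.11 with DL1, at -0.59 ± 0.097, adjusted p = 6.82e-04. In irradiated cultures it measured 3.36, 4.18 and 4.55 FPKM without DL1 and 2.05, 1.89 and 2.46 with it, at -0.68 ± 0.097, adjusted p = 1.81e-04. Every library with DL1 was below every library without it, and both calls held in all 14 alternatives that tested the gene. The gene was picked out after its values were seen.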
